A study of Homo sapiens with 6 samples.

Results

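The genes described here encode the proteasome: every gene with a symbol that starts with PSMA, PSMB, PSMC, PSMD, PSME, PSMF or PSMG followed by a number, except the inducible beta subunits other than PSMB10. The rule matched 47 symbols among 18701 genes, of which 46 were proteasome genes and 1 was PSMC3IP, a factor of homologous recombination and no subunit, which is given apart. After genes with a low mean signal were left out (under 3.62 on the log2 scale), 44 of the 46 were tested among 14025 genes: 15 of the core particle, 22 of the regulatory caps and 7 assembly chaperones. The other two, PSMA8 and PSMB11, are subunits of the testis and thymus proteasomes and had no array above 3.73.

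The cells were HT29-tsp53, a human colorectal adenocarcinoma line derived from HT-29 that carries a murine V135A p53 transgene, a temperature-sensitive p53 that works at 32 °C and not at the restrictive temperature; every culture carried it. Their total RNA was hybridised to 6 Human Gene 1.0 ST arrays from Affymetrix, 2 per group: cells kept at the restrictive temperature (p53 off), cells held for 16 h at 32 °C (p53 on), and cells held for 16 h at 32 °C and then given 6 h of recovery (p53 on then off, called recovery below). The restrictive temperature is 38 °C in some label fields and 37 °C in others, and 1 field of the recovery samples names 32 °C for the recovery period. The study is about how fast p53-induced transcripts are lost, while the values are transcript levels and hold no half-life. Each group has 1 array in each of 2 experiments, numbered 1 and 2 in the labels. Nothing in the labels says how separate the cultures were, so p-values measure the spread between these samples, which may be technical. No line without the transgene was analysed here, so the effects of p53 and of the lower temperature cannot be told apart.

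The proteasome degrades proteins marked with ubiquitin. Its core is a barrel of outer alpha rings, which gate the entrance, and inner beta rings, which hold the peptidase sites. The main regulatory cap has a base of ATPases, which unfold and thread the substrate, and a lid that holds the deubiquitinating subunit PSMD14. Other activators, PSME1 to PSME4, can bind the core in place of that cap, and dedicated chaperones build the core and the base without staying in the finished particle. Transcription of subunit genes is known to depend on NFE2L1 acting with small MAF proteins at antioxidant response elements, and on NFY at CCAAT boxes. In many cell types p53 is itself degraded by the proteasome after MDM2 ubiquitinates it.

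Known p53 target genes behaved as the labels say. CDKN1A, the cell cycle inhibitor p21, had log2 signals of 4.83 and 4.99 with p53 off, 8.32 and 7.91 with p53 on and 4.92 and 4.78 in recovery, giving experiment 1 and then experiment 2 in each group, as throughout. MDM2 was 3.52 higher with p53 on (limma adjusted p = 0.00174), and GDF15 was 3.04 higher (limma adjusted p = 0.00444). Of 10 colonic epithelial markers, 9 were above the low-signal threshold, and CDH17 was not. The fibroblast marker DCN and the leukocyte markers PTPRC and CD3E were below it on every array. The other members of those lists passed it: COL1A1 (5.26 to 5.89), COL1A2 (4.29 to 4.85), COL3A1 (4.4 to 4.70) and THY1 (3.6 to 4.21) of the fibroblast list, and CD14 (4.70 to 5.70), CD68 (5.72 to 6.65) and LYZ (10.81 to 11.52), which intestinal cells can also express, of the leukocyte list. Their part in the results was not tested. In bulk RNA, fewer cells of a type and less RNA per cell cannot be told apart.

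The promoters of the pair of genes on which the tests below turn are shown first, since each carries a motif that was searched for in the member promoters. They are the 250 bases before the gene's start in RefSeq's annotation of GRCh38.p14, printed along the gene's strand. PSME4 lies on the minus strand, with its window at chr2:53970994-53971243, and PSMC6 on the plus strand, with its window at chr14:52706950-52707199. Capitals mark CCGGAAG, the core of sites for ETS factors, in both, and GCAGCGTCA, the antioxidant response element on the opposite strand, in PSME4.
PSME4: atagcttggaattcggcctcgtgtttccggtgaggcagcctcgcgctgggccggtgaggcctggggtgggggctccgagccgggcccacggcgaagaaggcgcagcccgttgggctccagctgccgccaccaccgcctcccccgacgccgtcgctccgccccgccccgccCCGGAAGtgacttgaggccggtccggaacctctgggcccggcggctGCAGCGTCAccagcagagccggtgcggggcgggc
PSMC6: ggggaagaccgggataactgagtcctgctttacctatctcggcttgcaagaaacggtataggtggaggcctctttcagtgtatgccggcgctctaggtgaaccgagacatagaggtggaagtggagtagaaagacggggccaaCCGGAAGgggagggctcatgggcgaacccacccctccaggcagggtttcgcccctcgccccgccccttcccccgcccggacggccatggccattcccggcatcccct
The ETS core stood 80 to 74 bases before the start of PSME4 and 107 to 101 bases before that of PSMC6, and the antioxidant response element 34 to 26 bases before that of PSME4.

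Promoters of 300 bases were found in the RefSeq table for 40 of the 46 genes. On either strand, the antioxidant response element TGACNNNGC occurred in 12 of them (30.0%), against 13.6% of all 27305 promoters of that length. The ETS core CCGGAAG occurred in 13 (32.5%), against 10.7% of all, and the CCAAT box in 18 (45.0%), against 35.7%. Holders of the antioxidant response element included PSME4, PSMD1, PSMD12, PSMB3 and PSMC4, and holders of the CCAAT box included PSMB2, PSMB5, PSMA3 and PSMD14. The consensus of a p53 half-site, which is only part of a full p53 site, was a search added after the array values had been seen. It matched 3 of the 40 (7.5%, against 6.5% of all), in PSMA2, PSMD13 and PSMB10, and neither PSME4 nor PSMC6. Full p53 sites were not searched for. CCGGAAG does not overlap the other motifs in the printed windows. A match is a description of the letters, not a site of binding.

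With p53 on, most proteasome transcripts were within 0.5 log2 units of their level with p53 off, and the activator gene PSME4 had the largest difference of the 44. No member passed the test when the experiments were not modelled (limma adjusted p under 0.05 on 6 arrays), against 208 of 14025 genes (1.48%), and 1 of the 44 (2.27%) had an unadjusted p under 0.05, against 15.4% of all genes. In the fit with a replicate block, which takes the experiment number as a term and so removes the difference between the experiments, PSME4 rose and PSMC6 fell: 2 of 44 members (4.55%), against 11.5% of all genes. Differences smaller than 0.5 on the log2 scale were found for 40 of the 44 (90.9%), against 78.0% of all genes. The members were brighter, with a median log2 signal of 8.68 on the p53 off array of experiment 1, against 5.93 for all genes. The shares of all genes given in this report were not matched for signal. The difference had the same sign in both experiments for 23 members, 12 higher and 11 lower, which is 52.3% of them, against 65.1% of all genes. Both arrays of 1 group lay above both of the other for 7 of the 44, against 6059 of all 14025 genes. Such a separation was thus common, and where it is given below it is not read as a result by itself. The median difference was 0.06 for the core particle, 0.06 for the caps and -0.24 for the chaperones, against 0.02 for all genes. Within experiments 1 and 2 they were 0.17 and -0.02 for the core particle, 0.19 and -0.09 for the caps, and -0.05 and -0.59 for the chaperones, so the core and cap medians changed sign between the experiments.

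**Figure D1:**
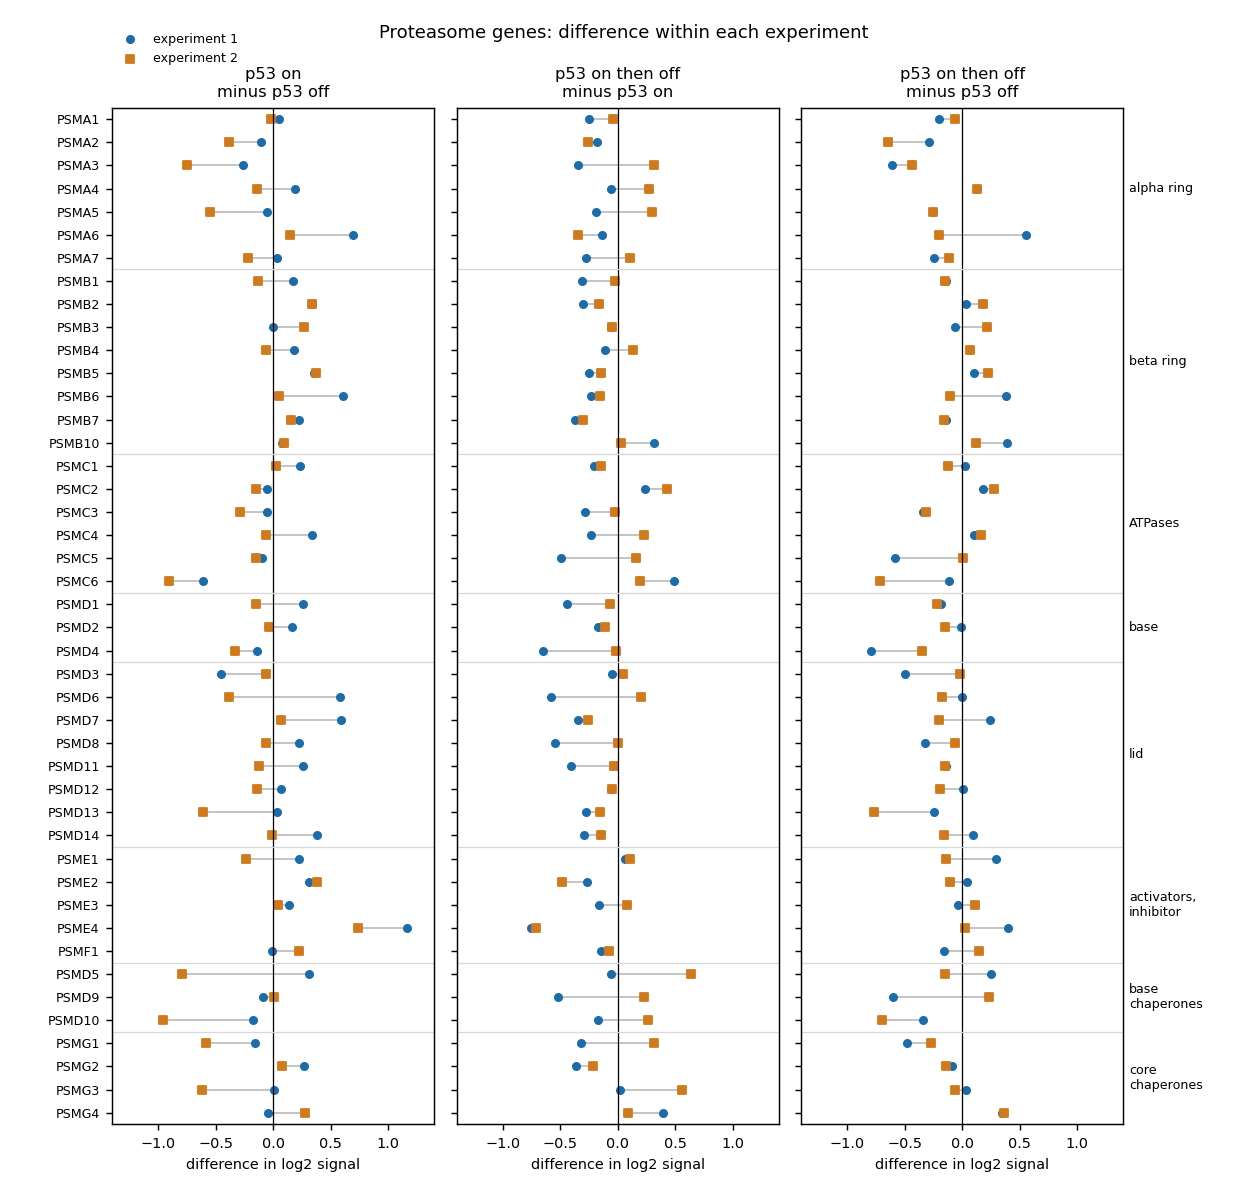
Difference in log2 signal (horizontal axis) for each of the 44 proteasome genes (vertical axis, grouped by role) in experiment 1 (blue circles) and experiment 2 (orange squares), for p53 on minus off, recovery minus on and recovery minus off. Grey lines join the same gene, and PSME4 has the most positive difference in the first panel and the most negative in the second.

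PSME4 encodes PA200, an activator that caps the core without ATPases or ubiquitin recognition and is known for roles in acetylated histone turnover and DNA repair. Its log2 signals were 7.81 and 8.09 with p53 off, 8.97 and 8.83 with p53 on, and 8.22 and 8.11 in recovery. Both arrays with p53 on lay above all 4 others. The difference with p53 on was 0.95 ± 0.20 (limma SE, n = 2 arrays per group), a ratio of 1.93 between group means, with 1.16 in experiment 1 and 0.74 in experiment 2. The limma adjusted p was 0.0842 without the block and 0.0146 with it, where the 95% interval of the difference was 0.53 to 1.37. Taking the mean of its probe sets in place of the median gave 0.83 and a limma adjusted p of 0.0381 without the block. With the block, the call was lost without p53 off replicate 1 (limma adjusted p = 0.0786) or p53 on replicate 1 (0.0587), and kept without each of the other 4 arrays.

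In recovery PSME4 fell by 0.74 from its level with p53 on, with differences of -0.76 and -0.71 (limma adjusted p = 0.0475 with the block, 0.198 without). The call was lost with the block when any of the 4 arrays compared was left out (limma adjusted p from 0.0838 to 0.319), and under quantile normalization (0.058) or when the median was taken over bright probe sets only, those above the low-signal threshold (0.0762). Against p53 off, recovery differed by 0.21 with an interval of -0.20 to 0.63 with the block, which did not pass the test (limma adjusted p = 0.676).

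**Figure D2:**
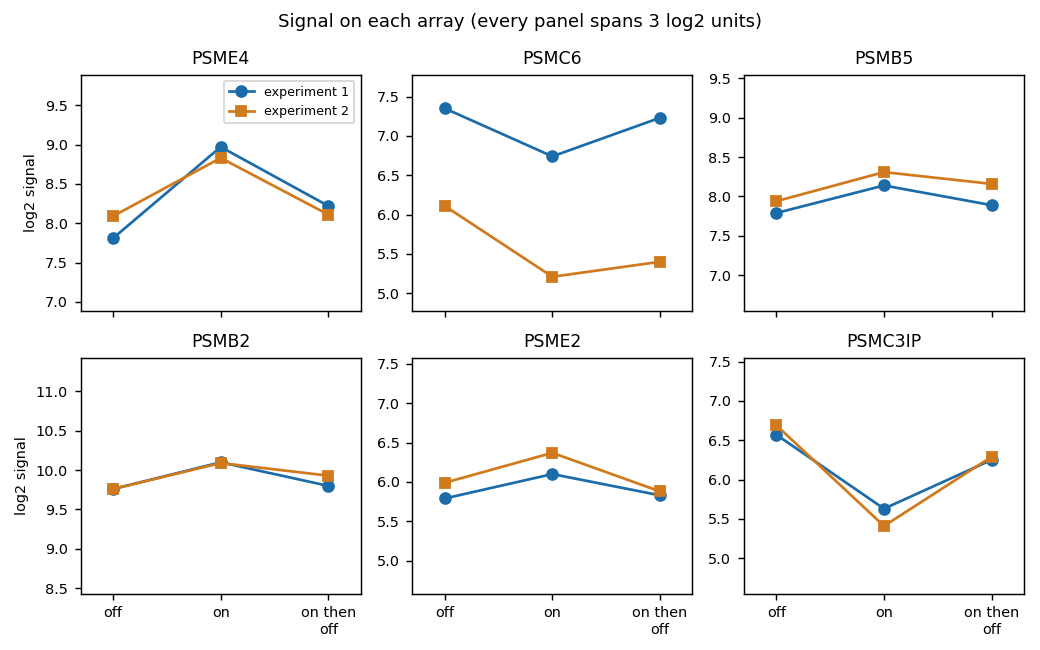
Log2 signal (vertical axis, 3 units in every panel) of 6 genes in the 3 groups (horizontal axis), with experiment 1 in blue and experiment 2 in orange; lines join arrays of 1 experiment. PSME4 peaks with p53 on in both experiments, PSMC3IP dips, and the PSMC6 lines lie apart from each other.

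The array reads PSME4 at 50 probe sets, each a separate stretch of the gene, which gives a view of the whole transcript. With p53 on, 47 of the 50 were higher in both experiments, none was lower in both and 3 went opposite ways, with a median difference of 0.84 and quartiles of 0.73 and 0.94. In recovery, 47 were lower in both experiments and 3 went opposite ways, with a median of -0.74. Between recovery and p53 off, 22 were higher in both, 9 were lower in both and 19 went opposite ways. The shift was thus spread over nearly all of the probe sets; these are readings of the same RNA samples and not replicates.

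**Figure D3:**
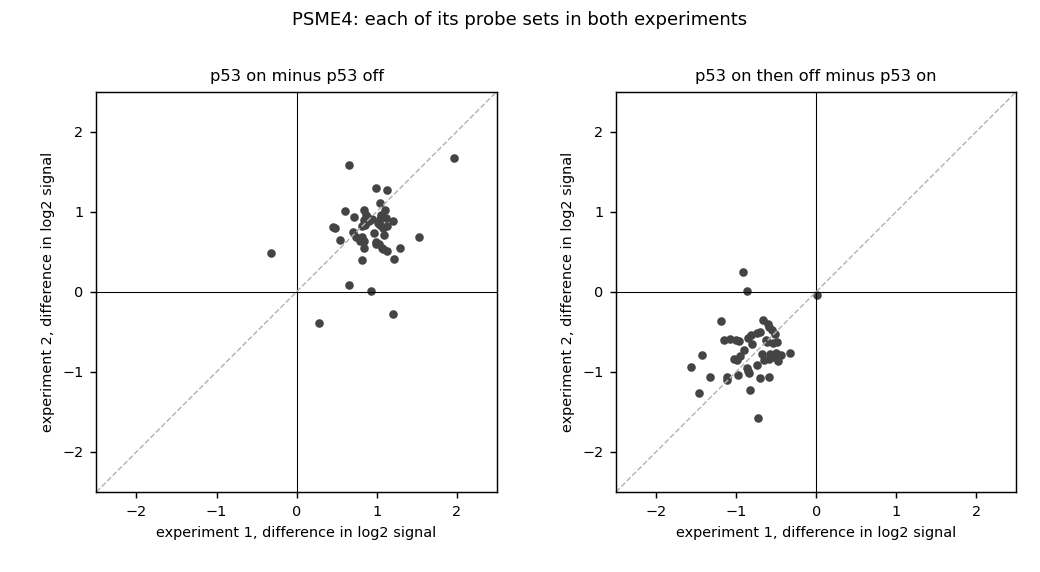
Each point is 1 of the 50 probe sets of PSME4, with its difference in log2 signal in experiment 1 on the horizontal axis and in experiment 2 on the vertical axis; the dashed line marks equal differences. The points lie mostly in the upper right quadrant for p53 on minus off and in the lower left for recovery minus on.

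The other alternative activators and the inhibitor PSMF1 had smaller differences with p53 on. PSME2, which with PSME1 forms the interferon-inducible activator ring, had signals of 5.79 and 5.99 with p53 off, 6.10 and 6.37 with p53 on, and 5.83 and 5.88 in recovery. Its values with p53 on were the highest of the 6. The difference of 0.35 with p53 on did not pass the test (limma adjusted p = 0.499, with the block 0.236), nor did that of -0.38 in recovery (0.54, with the block 0.235). PSME1 and PSMF1 went opposite ways in the 2 experiments with p53 on, and PSME3, the nuclear activator, differed by 0.08.

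The ATPases of the cap base unfold substrates, and 4 of the 6 were lower with p53 on in both experiments, against 4436 of all 14025 genes. PSMC6, the ATPase known as Rpt4 in yeast, had signals of 7.35 and 6.11 with p53 off, 6.74 and 5.21 with p53 on, and 7.23 and 5.40 in recovery. It was lowest with p53 on in each experiment, but every array of experiment 2 lay below every array of experiment 1, so the groups overlapped. The difference with p53 on was -0.76 (-0.61 and -0.90), with a limma adjusted p of 0.72 without the block and 0.0397 with it. The blocked call was lost without p53 on replicate 1 (0.0991), p53 off replicate 2 (0.253) or p53 on replicate 2 (0.12), and with bright probe sets only (0.0648). All 7 probe sets of PSMC6 are bright, so with bright probe sets only its signals were unchanged and only the other genes tested differed. The mean of probe sets gave -0.50, and 6 of its 7 probe sets were lower in both experiments.

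In recovery, PSMC6 differed from its level with p53 on by 0.34, which did not pass (0.49 and 0.19; limma adjusted p = 0.353 with the block). Without p53 on replicate 2 or recovery replicate 1, and without the block, the sign of that difference turned. PSMC2, the ATPase Rpt1, had signals of 9.11 and 9.13 with p53 off, 9.05 and 8.99 with p53 on, and 9.29 and 9.41 in recovery. Both recovery arrays were the highest of the 6, and the difference of 0.33 from p53 on did not pass (limma adjusted p = 0.561, with the block 0.293). The median difference of the 6 ATPases with p53 on was -0.11.

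Among the non-ATPases of the base and the lid, 11 genes were tested and none was called in any comparison, with or without the block. With the block, 11.5% of all genes were called with p53 on against off, 7.24% in recovery against p53 on and 0.599% in recovery against p53 off. These 11 genes are too few to tell no call from those shares. The lid had a median difference of 0.07 with p53 on (range -0.29 to 0.33). In the 2 experiments 6 of its 8 genes, PSMD14 among them, went opposite ways, against 4898 of all 14025 genes. PSMD4, the ubiquitin receptor of the base, had signals of 8.71 and 8.54 with p53 off, 8.56 and 8.21 with p53 on, and 7.92 and 8.20 in recovery. Both recovery arrays lay below both arrays with p53 off. That difference of -0.57 did not pass (limma adjusted p = 0.917, with the block 0.28), and it was -0.07 by the mean of probe sets. PSMD1 and PSMD2, the scaffold subunits of the base, differed by 0.05 and 0.06 with p53 on.

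The beta ring holds the peptidases. All 8 beta subunits tested had a positive mean difference with p53 on, from 0.02 to 0.36 with a median of 0.16. Only 5 of the 8 were higher in both experiments. Of all 14025 genes, 7293 had a positive mean difference and 4691 were higher in both experiments. None of the 8 was called, against 11.5% of all genes with the block, and 8 genes are too few to tell no call from that share. PSMB5, the chymotrypsin-like peptidase that bortezomib inhibits, had signals of 7.79 and 7.94 with p53 off, 8.14 and 8.31 with p53 on, and 7.89 and 8.16 in recovery. Both values with p53 on exceeded both values with p53 off, and the difference of 0.36 (0.35 and 0.37) did not pass (limma adjusted p = 0.48, with the block 0.21). PSMB2, a non-catalytic beta subunit, had signals of 9.76 and 9.76 with p53 off, 10.10 and 10.09 with p53 on, and 9.80 and 9.93 in recovery, a difference of 0.34 in each experiment with p53 on (limma adjusted p = 0.471, with the block 0.242). PSMB6, the caspase-like peptidase, differed by 0.61 in experiment 1 and 0.05 in experiment 2.

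In recovery, 6 of the 8 beta subunits were lower than with p53 on in both experiments, with a median of -0.18. Of all 14025 genes, 4408 were lower in both. PSMB7, the trypsin-like peptidase, had signals of 9.32 and 9.34 with p53 off, 9.55 and 9.50 with p53 on, and 9.18 and 9.19 in recovery. Both recovery arrays were below all 4 others, and the difference of -0.34 from p53 on did not pass (limma adjusted p = 0.55, with the block 0.282). PSMB10, the inducible trypsin-like subunit, had signals of 5.48 and 5.94 with p53 off, 5.56 and 6.03 with p53 on, and 5.87 and 6.05 in recovery. It was highest in recovery in both experiments, with a difference of 0.25 from p53 off (limma adjusted p = 0.999, with the block 0.599).

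The alpha ring, whose subunits gate the core, had a median difference of -0.10 with p53 on; the contrast with the beta ring was not tested. PSMA6 had signals of 8.65 and 7.91 with p53 off, 9.35 and 8.06 with p53 on, and 9.21 and 7.71 in recovery. Its difference with p53 on was 0.42, made of 0.69 and 0.15, and did not pass (limma adjusted p = 0.819, with the block 0.249). PSMA3, whose tail is part of the gate, had signals of 8.79 and 6.81 with p53 off, 8.53 and 6.06 with p53 on, and 8.18 and 6.37 in recovery. Every array of experiment 2 was more than 1 log2 unit below every array of experiment 1. The differences of -0.51 with p53 on and -0.52 in recovery, both against p53 off, did not pass (limma adjusted p = 0.88 and 0.999; with the block 0.15 and 0.327).

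The assembly chaperones had 5 of 7 negative mean differences with p53 on, 2 of them negative in both experiments. Of all 14025 genes, 6732 had a negative mean difference and 4436 were negative in both experiments. None of the 7 was called in any comparison, where the block called 11.5%, 7.24% and 0.599% of all genes. A list of 7 is too short to tell no call from those shares. PSMD10, the base chaperone gankyrin, which is also known to promote p53 ubiquitination by MDM2, had signals of 7.64 and 6.81 with p53 off, 7.47 and 5.85 with p53 on, and 7.30 and 6.11 in recovery. The difference of -0.57 with p53 on (limma adjusted p = 0.746, with the block 0.126) was 0.03 when the mean of probe sets was taken, so its direction depends on the summary. PSMG3, part of a chaperone pair for the alpha ring, had signals of 6.70 and 6.28 with p53 off, 6.71 and 5.66 with p53 on, and 6.73 and 6.22 in recovery. Its difference between recovery and p53 on was 0.02 in experiment 1 and 0.56 in experiment 2 (limma adjusted p = 0.871, with the block 0.459). PSMG4, the partner of PSMG3, was 0.35 higher in recovery than with p53 off, with signals of 4.86 and 4.76 against 5.20 and 5.12 (limma adjusted p = 0.99, with the block 0.45). It was read by only 2 probe sets, 1 of them above the low-signal threshold, and their differences were 0.07 and 0.64.

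Between recovery and p53 on, no member was called without the block, against 60 genes of all (0.428%), and 1 (2.27%) had an unadjusted p under 0.05, against 12.3% of all genes. With the block PSME4 was the 1 member called (2.27% of the 44), against 7.24% of all genes. The medians were -0.14 for the core particle, -0.17 for the caps and 0.05 for the chaperones, against 0.02 for all genes. Of the 44, 23 were lower in both experiments, 6 were higher in both and 15 went opposite ways. Of all 14025 genes, 4408 were lower in both, 4875 were higher in both and 4742 went opposite ways. The sign was the same in both experiments for 65.9% of the members and 66.2% of all genes. The arrays of the groups compared did not overlap for 11 of the 44, against 5545 of all 14025 genes. Within experiments 1 and 2 the medians were -0.23 and -0.04 for the core particle, -0.27 and -0.03 for the caps, and -0.17 and 0.26 for the chaperones, so those of the core and the caps were negative in both and smaller in experiment 2. Without the block, leaving out p53 on replicate 1 turned them to 0.32 for the core and 0.095 for the caps, and leaving out recovery replicate 2 to 0.15 and 0.038, values that also hold the gap between the experiments.

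Between recovery and p53 off, no member was called either without the block, where 4 genes of all passed (0.0285%), or with it, where 84 did (0.599%). Unadjusted p-values under 0.05 were found for 1 member (2.27%) without the block, against 5.32% of all genes, and for 5 (11.4%) with it, against 13% of all genes, so neither share exceeded that of genes in general. The medians were 0.07 for the core particle, -0.09 for the caps and -0.12 for the chaperones; that of the core was -0.06 within experiment 1 and -0.11 within experiment 2, of opposite sign, with 5 genes higher and 7 lower in both, and it was -0.01 by the mean of probe sets and -0.03 with bright probe sets only. No direction is read from it. The arrays of recovery and p53 off did not overlap for 11 of the 44, against 4905 of all 14025 genes. With the block, the interval of the difference lay within 1 log2 unit of 0 for 42 of 44 members (95.5%, against 91.4% of all genes). It did for 41 with p53 on against off (93.2%, against 80.6%) and for 43 in recovery against p53 on (97.7%, against 84.5%). These comparisons share arrays, so they are not separate evidence.

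The gap between the experiments was larger than the difference between p53 on and off for 29 of the 44 genes, against 6352 of 14025 genes. Averaged over the 3 arrays of each experiment, 32 of the 44 were lower in experiment 2, with a median gap of -0.33, while the median of all genes was -0.02. The gap exceeded 1 log2 unit for 5 members (11.4%), against 2.99% of all genes. The 5 were PSMA3 (-2.09), PSMC6 (-1.53), PSMA2 (-1.48), PSMD10 (-1.21) and PSMA6 (-1.17). At the level of probe sets, all 13 of PSMA3 and all 9 of PSMA2 were lower in experiment 2. So were all 7 of PSMC6, all 6 of PSMA6 and 8 of the 9 of PSMD10. This was not particular to genes with a large gap. Every probe set was also lower for PSMB1, PSMB3, PSMB4, PSMB7, PSMD9 and PSMG3, while no probe set of PSMB6 was.

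The gap was uneven across the particle: the alpha ring had a median of -0.88 and the beta ring of 0.02, and PSMC1 had the highest value, 0.58. PSME4, by contrast, differed by 0.01 between the experiments. The lid subunit SHFM1, whose symbol is outside the rule, had a gap of -1.56. Outside the particle the gap varied from gene to gene. The maturation factor POMP was at -1.34 and the ubiquitin gene UBB at -1.89, while the list medians were -0.22 for shuttles and segregase, -0.27 for proteasome-bound factors and -0.03 for the transcription factors. Among the epithelial markers, EPCAM was at -1.38 and KRT19 at -1.09, CDH1 at -0.07 and KRT18 at -0.18, and VIL1 and CDX1 were higher in experiment 2, by 0.22 and 0.38. What the experiment number stands for is not given, and its part in the results above was not tested beyond the block.

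**Figure D4:**
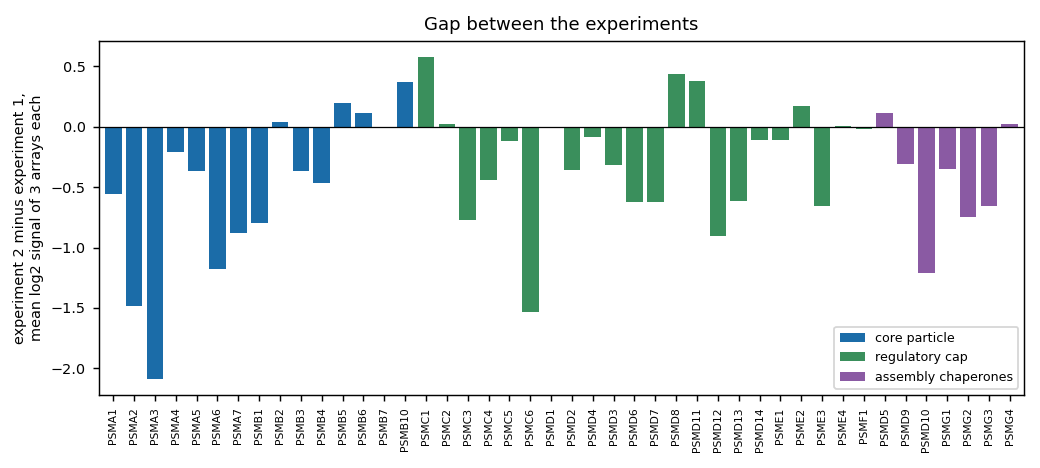
Mean log2 signal of the 3 arrays of experiment 2 minus that of experiment 1 (vertical axis, bars from 0) for each of the 44 genes (horizontal axis), coloured by core particle, regulatory cap and assembly chaperones. PSMA3 has the lowest bar at -2.09, and the bars of the beta subunits run from -0.80 for PSMB1 to 0.37 for PSMB10.

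PSMC3IP, matched by its symbol though it is no subunit, moved the opposite way to PSME4. Its signals were 6.57 and 6.69 with p53 off, 5.63 and 5.41 with p53 on, and 6.25 and 6.29 in recovery, so that both arrays with p53 on were below all 4 others. With the block it fell by 1.11 with p53 on (limma adjusted p = 0.00684; without the block 0.0528) and rose by 0.75 in recovery (0.0409; without the block 0.183). The fall kept its call with the block without any 1 array (limma adjusted p from 0.00203 to 0.0496). The recovery call was lost without any of the 4 arrays compared (0.051 to 0.26) and with bright probe sets only (0.206).

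Other genes of the pathway were taken from fixed lists. Of 4 subunits and maturation factors with symbols outside the rule, none was called with p53 on. Of all genes, 11.5% were called with the block and 1.48% without it, and 4 genes are too few to tell no call from those shares. The ubiquitin receptor ADRM1 had the smallest p, with signals of 9.0 and 8.24 with p53 off, 9.72 and 8.77 with p53 on, and 9.10 and 8.39 in recovery, a difference of 0.62 (limma adjusted p = 0.0505 with the block, 0.561 without). In recovery against p53 on, 1 of these 4 genes was called with the block (25%, against 7.24% of all genes). It was the base assembly factor PAAF1, which rose by 0.75 (limma adjusted p = 0.0368, without the block 0.32). Its signals were 6.21 and 5.79 with p53 on and 7.02 and 6.47 in recovery.

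Of 9 shuttles and parts of the VCP segregase, which extracts ubiquitinated proteins for the proteasome, 1 was called with the block (11.1%), close to the 11.5% of all genes. NPLOC4, a cofactor of VCP, had signals of 8.31 and 8.25 with p53 off, 9.07 and 8.92 with p53 on, and 8.38 and 8.25 in recovery. Both arrays with p53 on were above all 4 others. It rose by 0.71 (limma adjusted p = 0.0289 with the block, 0.143 without). In recovery it fell by 0.68 from p53 on (limma adjusted p = 0.0451 with the block, 0.207 without). That fall was the 1 blocked call of the 9 in this comparison (11.1%, against 7.24% of all genes). Each blocked call of NPLOC4 and PAAF1 was lost when any of the arrays compared was left out, with limma adjusted p from 0.0889 to 0.303. With bright probe sets only, the recovery calls were lost too, at 0.0751 for NPLOC4 and 0.0632 for PAAF1, and quantile normalization gave 0.0627 for NPLOC4.

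Of 10 proteasome-bound enzymes and factors none was called in any comparison. With the block, 11.5% of all genes were called with p53 on against off, 7.24% in recovery against p53 on and 0.599% in recovery against p53 off. ZFAND2A, a stress-induced proteasome binder, had the smallest p with p53 on, at a difference of 0.60 (limma adjusted p = 0.304, with the block 0.062). None of 3 genes for ubiquitin and its activating enzymes was called either. UBB was at -0.48 with p53 on (limma adjusted p = 0.871, with the block 0.105). Lists this short cannot tell no call from those shares of all genes.

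Of 9 transcription factors of subunit genes and their processing enzymes, 1 was called without the block (11.1%, against 1.48% of all genes) and 1 with it (against 11.5%). It was the same gene in both fits. MAFF, a small MAF protein, had signals of 3.05 and 3.23 with p53 off, 4.63 and 4.56 with p53 on, and 3.96 and 3.87 in recovery, so that both arrays with p53 off were under the low-signal threshold. It passed the filter through the other groups, where it is higher. Its call (limma adjusted p = 0.0256, with the block 0.00206) is therefore not read as a result, nor is its share of the list. The mean of its 5 probe sets gave 0.45 (0.318) and bright probe sets only gave -0.05 (0.967). Without the block the call was also lost when any 1 array was left out (limma adjusted p from 0.0699 to 0.206). NFYA, a subunit of the CCAAT-binding factor, had signals of 6.15 and 6.16 with p53 on and 7.01 and 7.01 in recovery. With the block it rose by 0.85 in recovery over p53 on (limma adjusted p = 0.0254, without the block 0.144). This was the 1 blocked call of the 9 in that comparison (11.1%, against 7.24% of all genes). That call was lost with the block without any of the 4 arrays compared (0.0614 to 0.183) and with bright probe sets only (0.0764). NFE2L1 itself differed by -0.33 with p53 on and was not called. In recovery against p53 off, no gene of these lists was called with or without the block, against 0.599% and 0.0285% of all genes.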

How the data were processed

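Total RNA of 6 samples was hybridised to 1 array each. The authors' deposited values were used as log2 signals per exon-level probe set, a scale judged from their range of -0.85 to 13.14; how they were computed and normalized was not given in the sources used here. Array medians lay between 5.24 and 5.31, so no scaling was added. Of 257430 probe sets, the 224320 with 1 gene symbol were used, and a gene's value on an array was the median of its probe sets. The lowest 25% of genes by mean signal were left out, leaving 14025. There is no read depth, and the number of arrays limits the precision.

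Tests were made with limma 3.58.1 (R 4.3.3) on 3 groups over 6 arrays, with a moderated spread and Benjamini-Hochberg adjustment over all genes tested; a call is an adjusted p under 0.05. An exact permutation test of 2 arrays against 2 cannot reach that threshold. An alternative fit had the experiment number as its replicate block. The deviations of same-numbered arrays from the group means correlated across genes at 0.496, 0.551 and 0.63, so the number was taken to pair the samples. The fitting code was tested on simulated data.

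In each comparison the text gives members called with or without the block and the 3 highest and 3 lowest with the same sign in both experiments; further members given with values were chosen after those values were seen. The members and lists were chosen with earlier results of these data known. Other alternatives were the 2 groups alone, the mean of probe sets, quantile normalization, other filters, an intensity trend and leaving out each array. The p53 gene itself is not analysed here.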

Additional observations from a re-analysis of the deposited data

How the results depend on the processing

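Without the block no proteasome gene was called in any comparison under the settings tried, except PSME4 with p53 on by the mean of probe sets (1 gene). With the replicate block, 2 were called with p53 on, and also 2 with it and the mean of probe sets, quantile normalization or an intensity trend, and 1 with bright probe sets only; leaving out single arrays gave 0 to 2. For recovery against p53 on it called 1, and 1 with the mean or the trend, none with quantile normalization or bright probe sets, and 0 or 1 without single arrays. Combinations with the block were chosen after seeing the data. The block called no proteasome gene in recovery against p53 off.

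The mean of probe sets turned PSMD10 with p53 on to 0.033 and PSMC2 in recovery against p53 off to -0.059, and bright probe sets turned MAFF to -0.047, with or without the block. Without single arrays and without the block, the differences with p53 on spanned -1.52 to 0.0082 for PSMC6, -1.38 to 0.24 for PSMD10, -1.74 to 0.73 for PSMA3 and -0.22 to 1.06 for PSMA6. Those of recovery against p53 on spanned -0.58 to 1.26 for PSMC6, -0.23 to 0.81 for PSMG3 (-0.0026 with the block without p53 on replicate 2) and -0.36 to 0.095 for the cap median. Those of recovery against p53 off spanned -1.51 to 0.47 for PSMA3, -1.11 to 0.073 for PSMD10 and -1.33 to 0.50 for PSMC6. Leaving out 1 array without the block leaves unequal experiments in the groups compared, so these ranges hold the gap between experiments. With 2 arrays per group, small differences are below what the arrays can show.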
